A study of Mus musculus with 90 samples.

Results

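Embryoid bodies of the mouse line CBX7-mCaPS were compared after 10 days of differentiation with the stem cells of the same line on day 0, in the 3 RNA-seq libraries of each day, which are 6 of the 90 libraries of the series. The groups were set by the genotype and day in the labels. The day 10 group holds embryoid bodies of J1 mouse embryonic stem cells with the genotype CBX7-mCaPS, in which CBX7 carries a mutated form of the compaction and phase separation domain of its paralog CBX2. The day 0 group holds undifferentiated J1 stem cells of that genotype. The 3 mCaPS libraries of day 6 give the time between them, and the day 10 and day 0 libraries of 2 further genotypes, WT and CBX7 KO, 3 of each, give the same change in cells with unaltered CBX7 and in cells made to lack it. All of these cells were grown before day 0 on a layer of mouse embryonic fibroblasts, in serum and leukemia inhibitory factor (LIF). The feeder cells were removed, the stem cells were hung in drops in medium with serum and without LIF, and from day 4 the bodies of many drops were pooled in suspension. Each library is therefore a pool of many bodies of mixed cell type, and the labels do not give the number of clones behind a genotype or say whether replicates were separate cultures. The p values rest on the spread within groups over all 36 embryoid body libraries, also of other genotypes, and not over the mCaPS libraries alone. That spread may be technical. In bulk RNA, fewer cells of a type and less RNA per cell cannot be told apart.

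CBX7 is a chromodomain subunit of canonical Polycomb repressive complex 1 (PRC1). It binds histone H3 trimethylated on lysine 27, the mark laid down by Polycomb repressive complex 2 (PRC2), and it is the main CBX protein of mouse embryonic stem cells. Paralogs such as CBX2 and CBX8 take its place as cells commit to a lineage, and many genes of the Polycomb complexes' target set encode lineage transcription factors. Embryoid bodies are aggregates in which stem cells leave pluripotency through an epiblast-like state and give rise to derivatives of the germ layers, among them beating heart muscle, endothelium and primitive blood.

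The 9 mCaPS libraries of the embryoid body experiment held 34377931 to 54282054 counts. Of these counts, 9.35% to 25.4% were of the ribosomal RNA precursor Rn45s in 8 libraries and 88.7% in day 0 replicate 3, which had 5038932 counts outside Rn45s and 15566 genes with a count, against 18301 to 18914 genes in the other 8. That library also stood apart in other genes (Spearman correlation 0.915 and 0.913 with the other day 0 libraries, which had 0.992 with each other). Its level of some genes, such as the collagens and Mycn, was far above that of the other stem cell libraries, so results are given with it and, where they move, without it. Of the gene counts from 1 to 20, 76.6% to 82.2% were even numbers in the other 8 mCaPS libraries and 94.1% in that library, and 42.1% to 42.8% in the replicate 1 libraries of WT, which held 13124625 to 15696557 counts. Levels are in CPM, counts scaled to a common library size after trimmed mean of M values (TMM) scaling, in the order replicate 1, 2 and 3. Fold changes are log2 ratios of day 10 over day 0 with their standard error (SE), and a gene is called at an adjusted p below 0.05 over all genes tested.

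Between day 0 and day 10, 3175 genes rose and 3292 fell of 17791 tested, which is 17.8% and 18.5% of them and 36.3% together. The median log2 fold change of all genes was 0.03. Without day 0 replicate 3, 2670 genes rose and 2916 fell of 18088 tested (14.8% and 16.1%, 30.9% together), 4806 of the 6467 calls were shared, and 0 shared calls had the opposite sign. The day 10 libraries lay above all 3 day 0 libraries for 29.5% of genes and below all 3 for 22.8%. By day 6 the change was smaller, with 602 genes higher and 1299 lower than on day 0 (3.38% and 7.3%, 10.7% together), and 2874 genes higher and 2303 lower on day 10 than on day 6 (16.2% and 12.9%, 29.1% together). These 3 comparisons share libraries, day 0 or day 10 with the first. The 3 mCaPS day 0 libraries of the series' neural progenitor experiment, stem cells of the same genotype, gave another day 0. Against them 3310 genes rose and 2994 fell on day 10 (18.6% and 16.8%, 35.4% together), and in that comparison the experiment and the day cannot be told apart. Of 655 genes in 38 lists of lineage and pathway genes, those with counts enough were tested, and members below are those tested. The shares of all genes, 17.8% higher and 18.5% lower on day 10 than on day 0, stand beside every list count of that comparison. Beside list counts of day 6 against day 0 stand 3.38% and 7.3%, and beside those of day 10 against day 6 stand 16.2% and 12.9%. A list with counts near these shares did not stand apart from all genes.

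**Figure D1:**
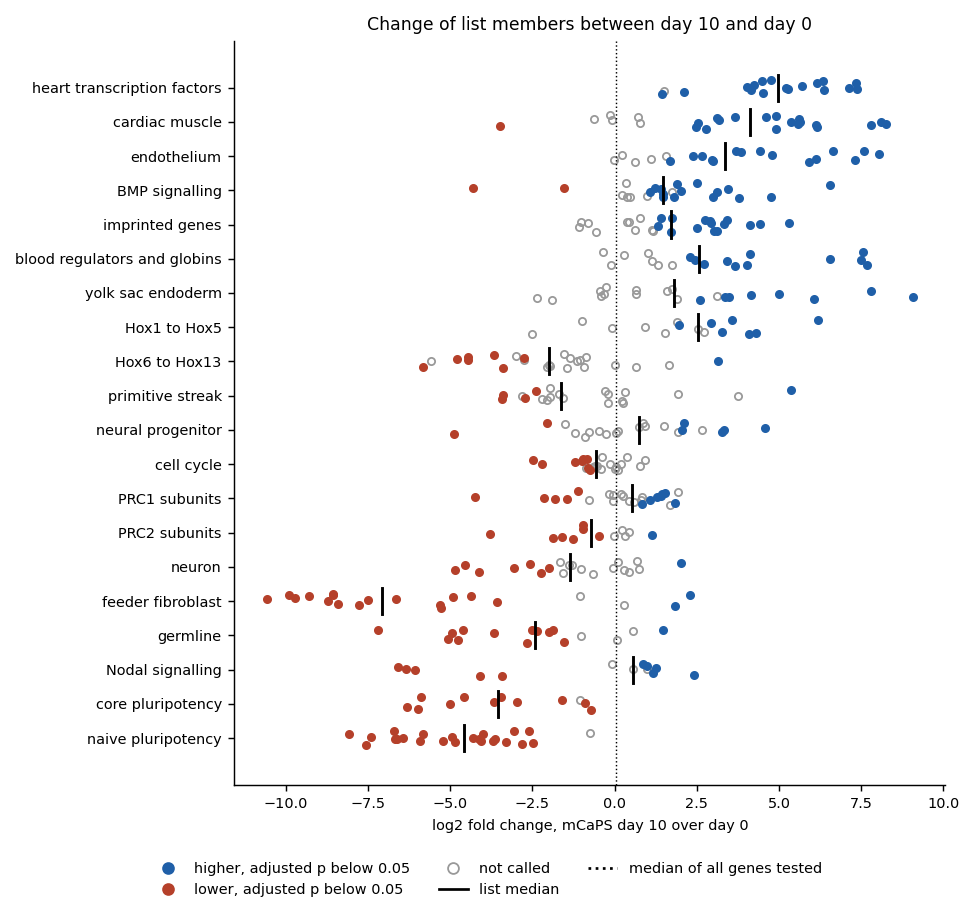
Log2 fold change of day 10 over day 0 for the tested members of 20 gene lists in mCaPS embryoid bodies. Each point is a gene, blue where it was called higher, red where it was called lower and open grey where it was not called, the black bar is the list's median and the dotted line is the median of all genes (0.03). Heart, endothelium and BMP genes lie mostly right of the line, and pluripotency, germline and feeder genes left of it.

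Pluripotency genes fell by day 10. Of 24 genes of naive pluripotency, the state of the preimplantation epiblast, 23 fell and 0 rose (median log2 fold change -4.57), and 23 fell without day 0 replicate 3 (18.5% and 16.1% of all genes fell in these fits). Nanog, a homeodomain factor that holds cells in the naive state, had 14.2, 12.5 and 8.22 CPM on day 10 and 243, 227 and 218 CPM on day 0 (-4.30 ± 0.46, adjusted p = 1.36e-07). Zfp42, a zinc finger gene also known as Rex1, had 3.37, 2.32 and 1.53 CPM on day 10 and 316, 291 and 144 CPM on day 0 (-6.70 ± 0.83, adjusted p = 8.14e-07). Esrrb, an orphan nuclear receptor of the same network, had 3.23, 2.38 and 2.26 CPM on day 10 and 280.0, 266 and 289 CPM on day 0 (-6.72 ± 0.90, adjusted p = 2.45e-06). In these 3 genes every day 10 library lay far below every day 0 library. The fall was deepest for Nr0b1, another orphan receptor, with 0.435, 0.162 and 0.232 CPM on day 10 and 50.1, 47.3 and 132 CPM on day 0 (-8.08 ± 1.09, adjusted p = 2.58e-06). Dppa5a, an RNA-binding protein of stem cells, had 5.50, 5.29 and 3.11 CPM on day 10 and 471, 450.3 and 1733 CPM on day 0 (-7.58 ± 1.07, adjusted p = 4.66e-06). Sox2, which is also a gene of neural progenitors, kept more of its level, with 34.3, 19.9 and 24.5 CPM on day 10 and 219, 184 and 153 CPM on day 0 (-2.82 ± 0.45, adjusted p = 2.09e-05). Tbx3 was the member not called, with 22.8, 69.2 and 51.9 CPM on day 10 and 52.3, 41.3 and 149 CPM on day 0 (-0.75 ± 0.74, adjusted p = 0.459), and its groups overlapped. Tbx3 is a T-box factor that is used again in the developing heart.

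The core pluripotency list, genes shared by naive and later pluripotent states, fell in 11 of 12 members (median -3.56), and in 10 of 12 without day 0 replicate 3. Pou5f1, which encodes OCT4 (chromosome 17, 35506032-35510777, + strand, mm10), had 50.4, 45.8 and 42.1 CPM on day 10 and 695, 728 and 1878 CPM on day 0 (-4.58 ± 0.43, adjusted p = 2.67e-08). Replicate 3 of day 0 was the highest, and without it the log2 fold change was -3.97 (adjusted p = 9.25e-08). L1td1, an RNA-binding protein of stem cells, had 22.1, 18.2 and 16.8 CPM on day 10 and 651, 503 and 675 CPM on day 0 (-5.002 ± 0.57, adjusted p = 2.89e-07). Mybl2, a cell cycle transcription factor, had 28.1, 35.96 and 33.2 CPM on day 10 and 298, 284 and 664 CPM on day 0 (-3.68 ± 0.54, adjusted p = 8.02e-06). Foxd3, a forkhead factor, had 1.08, 1.05 and 0.812 CPM on day 10 and 18.96, 15.9 and 143 CPM on day 0 (-5.90 ± 0.82, adjusted p = 4.21e-06), with the same library highest on day 0. Lin28a, an inhibitor of let-7 microRNA processing, fell less, with 430.2, 444 and 457 CPM on day 10 and 598, 541 and 1369 CPM on day 0 (-0.91 ± 0.31, adjusted p = 0.0197), and was not called against the neural experiment's day 0 libraries (adjusted p = 0.305) or without day 0 replicate 3 (adjusted p = 0.306). Myc was the member not called (-1.05 ± 0.71, adjusted p = 0.256). The summed level of 5 stem cell markers was 78.6 to 105.6 CPM on day 10 and 1696 to 2681 CPM on day 0, and none of the 5 was at 0 in any of these libraries.

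**Figure D2:**
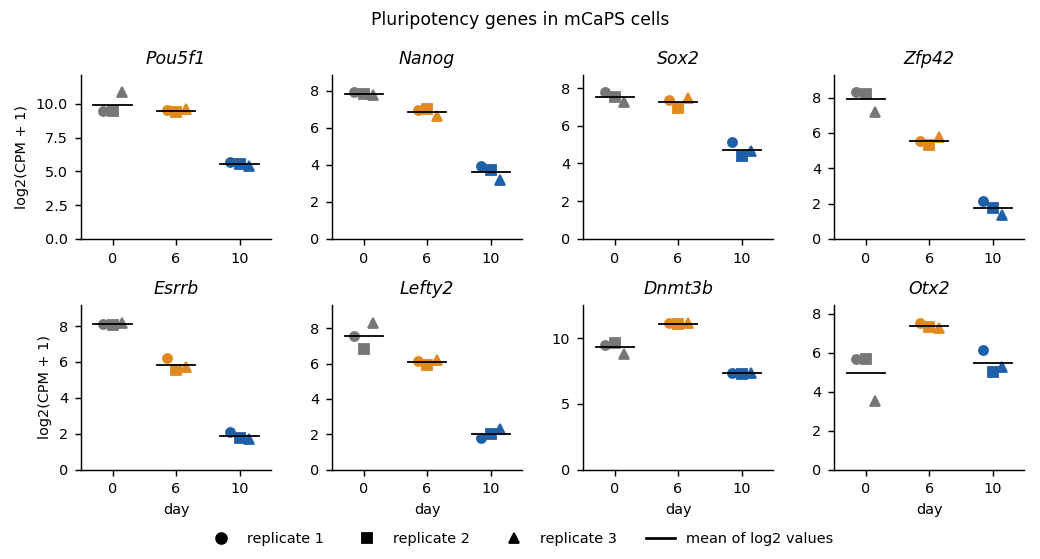
Level of 8 genes of pluripotency and the early epiblast in each mCaPS library on days 0, 6 and 10, as log2(CPM + 1). Circles, squares and triangles are replicates 1, 2 and 3 and each line is the mean of the log2 values. Pou5f1 and Sox2 overlapped between days 0 and 6 and were low on day 10, Nanog, Zfp42 and Esrrb lay lower on day 6 and lowest on day 10, and Dnmt3b and Otx2 were highest on day 6.

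Day 6 divided these genes. Of the 24 naive genes, 12 were called lower on day 6 than on day 0 (7.3% of all genes). Of the same list, 16 were lower on day 10 than on day 6 (12.9% of all genes). In the core list of 12, 1 fell by day 6, near the share of all genes, and 7 fell after it. Pou5f1 had 695, 728 and 1878 CPM on day 0, 744, 670.0 and 774 CPM on day 6 and 50.4, 45.8 and 42.1 CPM on day 10. Esrrb was lower on day 6, with 73.7, 46.4 and 52.5 CPM (log2 fold change over day 0 -2.27, adjusted p = 0.0426). Zfp42 had 46.0, 38.7 and 52.4 CPM on day 6 (-2.45, adjusted p = 0.0178). Nanog had 124, 129 and 97.8 CPM on day 6 and was not called against day 0 (-0.97, adjusted p = 0.12). Klf4, a Kruppel-like factor held up by LIF, was already at its lowest on day 6, with 92.7, 65.6 and 127 CPM on day 0, 5.85, 3.17 and 4.38 CPM on day 6 and 7.67, 13.5 and 12.8 CPM on day 10.

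Genes of the formative and primed epiblast, the step after the naive state, were followed through day 6. Between day 0 and day 10, 5 of 14 were called, 1 higher and 4 lower (median -0.59), and the same counts held without day 0 replicate 3. On day 6, 5 were called higher and 1 lower than on day 0 (3.38% and 7.3% of all genes). From day 6 to day 10, 1 rose and 11 fell (16.2% and 12.9% of all genes). Dnmt3l and Cdh2 did not peak on day 6. Dnmt3b, a de novo DNA methyltransferase, had 737, 797 and 445 CPM on day 0, 2317, 2146 and 2251 CPM on day 6 and 166, 156 and 161 CPM on day 10. Otx2, a homeodomain factor of the primed epiblast and forebrain, had 50.8, 49.6 and 10.5 CPM on day 0, 184, 158 and 150.5 CPM on day 6 and 68.4, 30.7 and 38.03 CPM on day 10. In both genes all 3 day 6 libraries lay above all others. Pou3f1, also known as OCT6, was lower on day 10 than on day 0, with 6.12, 5.75 and 7.25 CPM on day 10 and 38.5, 52.7 and 173 CPM on day 0 (-3.78 ± 0.53, adjusted p = 4.73e-06). The fall came after day 6, when it had 146, 128 and 177 CPM and was not called against day 0 (0.78, adjusted p = 0.328). Dnmt3l, the cofactor of the de novo methyltransferases, had 1.895, 1.41 and 0.657 CPM on day 10 and 154, 158 and 246 CPM on day 0 (-7.13 ± 0.95, adjusted p = 2.3e-06). Cdh2, which encodes N-cadherin, was the member that rose, with 123, 122 and 124 CPM on day 10 and 35.6, 24.2 and 9.42 CPM on day 0 (2.40 ± 0.48, adjusted p = 0.000294). Dnmt3a had about the same level on both ends, with 175, 182 and 174 CPM on day 10 and 155, 183 and 234 CPM on day 0 (-0.11 ± 0.29, adjusted p = 0.797). It was higher between them, with 593, 587 and 641 CPM on day 6 (log2 fold change over day 0 1.67, adjusted p = 0.000347).

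NODAL signals through activin receptors and SMAD2 or SMAD3 and keeps the epiblast pluripotent before it patterns the germ layers. Of 13 genes of the pathway 5 rose and 5 fell, and 4 rose and 5 fell without day 0 replicate 3. The 5 that fell were Nodal, its coreceptor Tdgf1, the related ligand Gdf3 and the inhibitors Lefty1 and Lefty2. Nodal had 4.90, 6.58 and 5.43 CPM on day 10 and 64.6, 63.5 and 160.0 CPM on day 0 (-4.08 ± 0.45, adjusted p = 2.1e-07). Lefty2 had 2.42, 3.05 and 3.87 CPM on day 10 and 193, 115 and 317 CPM on day 0 (-6.06 ± 0.56, adjusted p = 2.46e-08). Gdf3 had 0.626, 0.767 and 0.541 CPM on day 10 and 66.8, 57.4 and 63.1 CPM on day 0 (-6.59 ± 0.70, adjusted p = 1.35e-07). The groups did not overlap in any of these 5 genes. The 5 that rose were the receptor genes Acvr1b, Acvr2a and Acvr2b and the transducers Smad2 and Smad3. Smad3 had 134, 117 and 132 CPM on day 10 and 29.3, 23.6 and 18.5 CPM on day 0 (2.42 ± 0.32, adjusted p = 2.39e-06).

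The primitive streak is the site where epiblast cells become mesoderm and endoderm. Of 20 of its genes, 1 rose and 4 fell between the 2 days (median -1.63), 1 rose and 2 fell without day 0 replicate 3, and 2 rose and 1 fell against the neural experiment's day 0 libraries. T, which encodes brachyury, had 77.3, 44.6 and 57.5 CPM on day 10 and 77.0, 59.7 and 72.0 CPM on day 0 (-0.22 ± 1.13, adjusted p = 0.899), with 4.38, 22.3 and 11.7 CPM on day 6. The day 0 stem cells of mCaPS therefore held T at a level that overlapped that of day 10, and the 3 WT stem cell libraries of the same experiment had 14.4, 6.13 and 9.31 CPM. Mesp1, a factor of the earliest heart and vessel progenitors, rose, with 3.20, 3.39 and 4.99 CPM on day 10 and 0.146, 0.0478 and 0 CPM on day 0 (5.37 ± 1.66, adjusted p = 0.0116). Mixl1 fell, with 1.18, 0.929 and 0.851 CPM on day 10 and 17.02, 10.2 and 4.47 CPM on day 0 (-3.44 ± 1.15, adjusted p = 0.0203). Nkx1-2, a gene of the caudal epiblast, also fell (-3.38 ± 0.83, adjusted p = 0.00211). Neither call held against the neural experiment's day 0 libraries, which had 1.38, 1.10 and 5.69 CPM of Mixl1 (log2 fold change -1.38, adjusted p = 0.361) and 0.641, 0.309 and 5.17 CPM of Nkx1-2 (-1.98, adjusted p = 0.089). Lhx1 overlapped between days, with 34.9, 26.5 and 30.2 CPM on day 10 and 34.8, 16.1 and 23.0 CPM on day 0 (0.31 ± 1.03, adjusted p = 0.84), but rose against the 0.986, 0.927 and 1.79 CPM of the neural experiment's day 0 libraries (4.71, adjusted p = 0.0035).

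Heart genes rose broadly. Of 18 transcription factors of the heart, 17 were called higher on day 10 and 0 lower (median 4.98), against 17.8% of all genes higher, and 15 were called higher without day 0 replicate 3. On day 6, 0 of them had risen (3.38% of all genes). Gata4, a zinc finger factor of heart and endoderm, had 49.8, 105.8 and 88.0 CPM on day 10 and 3.77, 4.18 and 7.67 CPM on day 0 (4.01 ± 0.83, adjusted p = 0.000405). Isl1, a factor of second heart field progenitors, had 40.8, 29.1 and 31.6 CPM on day 10 and 0.275, 0.0955 and 0.319 CPM on day 0 (7.34 ± 0.97, adjusted p = 2.02e-06). Mef2c, a MADS-box factor of muscle, had 94.2, 108 and 105 CPM on day 10 and 1.13, 1.58 and 0.958 CPM on day 0 (6.33 ± 0.72, adjusted p = 2.87e-07). The 3 day 10 libraries were close to each other in Isl1 and Mef2c and spread further in Gata4. Myocd, the coactivator of serum response factor in cardiac and smooth muscle, had 58.7, 71.6 and 73.2 CPM on day 10 and 0.476, 0.43 and 0.639 CPM on day 0 (7.12 ± 1.10, adjusted p = 1.51e-05). Hand1, a factor of the left ventricle and of extraembryonic mesoderm, had 30.2, 188 and 156 CPM on day 10 and 1.35, 1.29 and 3.19 CPM on day 0 (6.15 ± 1.08, adjusted p = 7.01e-05), and replicate 1 was the lowest day 10 library. Nkx2-5, an early cardiac homeodomain factor, rose at a low level, with 5.23, 6.26 and 9.67 CPM on day 10 and 0.293, 0.0955 and 1.28 CPM on day 0 (4.14 ± 1.19, adjusted p = 0.00746). Zfpm2, the GATA cofactor FOG2, was the member not called (1.49 ± 0.63, adjusted p = 0.0642).

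Genes of the contractile apparatus of heart muscle rose too. Of 24 genes 18 rose and 1 fell (median 4.12), and 16 rose and 1 fell without day 0 replicate 3. On day 10, 21 were called higher than on day 6 (16.2% of all genes). Tnnt2, cardiac troponin T (chromosome 1, 135836334-135852268, + strand, mm10), had 51.3, 83.8 and 77.7 CPM on day 10 and 0.256, 0.143 and 0.639 CPM on day 0 (8.10 ± 1.42, adjusted p = 6.98e-05). Myh7, a slow myosin heavy chain of the embryonic ventricle, had 215, 168 and 202 CPM on day 10 and 1.10, 0.764 and 0.639 CPM on day 0 (7.79 ± 1.28, adjusted p = 3.28e-05). Tnni1, the troponin I of slow and fetal muscle, had 38.3, 71.04 and 63.6 CPM on day 10 and 0.11, 0.239 and 0.319 CPM on day 0 (8.24 ± 1.31, adjusted p = 2.09e-05). In each of these the day 0 libraries were near 0 and the day 10 libraries well above them. Ryr2, the calcium release channel of heart muscle, had 68.8, 104 and 87.4 CPM on day 10 and 8.44, 8.34 and 3.51 CPM on day 0 (3.65 ± 0.54, adjusted p = 8.85e-06). Nebl, a thin filament protein of the Z-disc, had 46.8, 49.3 and 47.9 CPM on day 10 and 1.28, 0.764 and 0.958 CPM on day 0 (5.56 ± 0.80, adjusted p = 5.78e-06). Ttn, the giant spring protein of the sarcomere, had 932, 442 and 509 CPM on day 10 and 108, 123 and 40.9 CPM on day 0 (2.79 ± 0.86, adjusted p = 0.0122), and it was not called without day 0 replicate 3 (adjusted p = 0.0677). Csrp3, a Z-disc protein, had 227 counts in the 3 day 10 libraries and 2 counts in those of day 0, a ratio of 73.5 in CPM with a 95% exact interval of 20.1 to 610, which covers counting error only and takes each count as a separate fragment. Most low counts were even numbers, and if both mates of a fragment were counted, 2 counts may be 1 fragment, and this and the other ratios' intervals and floors are too narrow. Ankrd1 was the member that fell, with 1.11, 1.09 and 1.10 CPM on day 10 and 10.03, 4.42 and 23.3 CPM on day 0 (-3.49 ± 0.82, adjusted p = 0.00139). It is a stress-responsive target of the YAP pathway as well as a muscle gene, and it was not called against the neural experiment's day 0 libraries (-0.95, adjusted p = 0.338). Tpm1, which other cells also express, was not called (0.77 ± 0.45, adjusted p = 0.182), and the natriuretic peptide genes Nppa and Nppb stayed below 2 CPM in every mCaPS library.

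**Figure D3:**
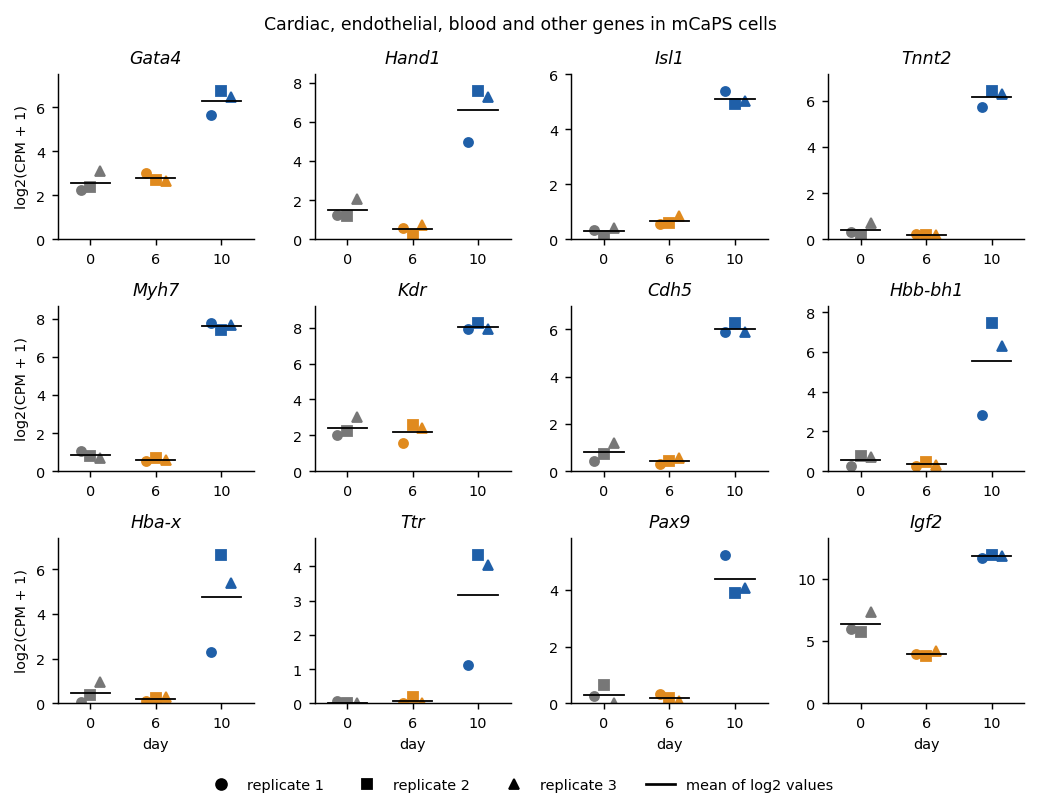
Level of 12 genes of heart, endothelium, blood, yolk sac, sclerotome and growth in each mCaPS library on days 0, 6 and 10, as log2(CPM + 1). Circles, squares and triangles are replicates 1, 2 and 3 and each line is the mean of the log2 values. All 12 were lower on day 6 than on day 10, where replicate 1 (circle) was lowest in Hbb-bh1, Hba-x, Ttr and Hand1 and highest in Pax9.

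Promoter sequence of a few of these genes is shown because 2 stem cell genes that fell and 2 heart genes that rose hold a short motif of a factor family named above. Of 8 motifs searched on both strands in the 250 bases before the gene start, the ones shown were chosen after their matches were seen. The 4 sequences come from RefSeq on GRCm38.p6, read toward the gene on its own strand, with the match in capitals. Nanog (chr6:122707239-122707488, + strand) and Zfp42 (chr8:43307010-43307259, - strand) hold ATGCAAA, part of the octamer bound by POU factors, on the reverse strand. Tnnt2 (chr1:135836084-135836333, + strand) and Nebl (chr2:17670166-17670415, - strand) hold AGATAA, a motif of GATA factors, on the reverse strand. The RefSeq start used for Nebl lies inside the gene as the files give it (chromosome 2, 17342673-17731134, - strand, mm10), so its stretch precedes a start within the gene.
Nanog: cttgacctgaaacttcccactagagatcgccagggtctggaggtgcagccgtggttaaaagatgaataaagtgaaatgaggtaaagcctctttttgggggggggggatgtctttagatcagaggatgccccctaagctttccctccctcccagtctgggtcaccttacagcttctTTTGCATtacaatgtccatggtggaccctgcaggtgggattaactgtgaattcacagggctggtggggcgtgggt
Zfp42: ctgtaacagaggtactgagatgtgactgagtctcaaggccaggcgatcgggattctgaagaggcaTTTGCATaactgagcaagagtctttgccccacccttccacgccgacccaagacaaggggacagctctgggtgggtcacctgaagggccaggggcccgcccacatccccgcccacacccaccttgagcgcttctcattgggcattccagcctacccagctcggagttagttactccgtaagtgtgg
Tnnt2: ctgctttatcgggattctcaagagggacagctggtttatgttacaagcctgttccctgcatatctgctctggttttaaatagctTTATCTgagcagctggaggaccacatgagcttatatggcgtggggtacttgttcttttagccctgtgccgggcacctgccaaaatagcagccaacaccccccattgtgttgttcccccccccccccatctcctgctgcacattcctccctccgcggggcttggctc
Nebl: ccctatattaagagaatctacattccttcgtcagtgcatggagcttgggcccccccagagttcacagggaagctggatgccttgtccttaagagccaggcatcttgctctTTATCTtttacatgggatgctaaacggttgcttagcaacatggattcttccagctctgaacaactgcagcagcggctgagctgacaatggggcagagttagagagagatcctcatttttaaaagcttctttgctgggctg
The octamer part was found in 3 of the 16 naive pluripotency promoters in the table (Nanog, Zfp42 and Sox2), in 0 of 8 core pluripotency promoters and in 4.06% of all 27025 promoters. AGATAA was found in 6 of 24 cardiac muscle promoters, 5 of them of called genes, in 1 of 10 heart transcription factor promoters and in 10.3% of all promoters. It was also in 3 of 15 blood, 0 of 11 endothelium and 2 of 9 feeder fibroblast promoters. The octamer part was in 1 of 9 feeder fibroblast promoters. A match of these letters is a description and not a bound site.

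Of 10 smooth muscle genes 1 rose and 2 fell between day 0 and day 10. By day 6, 6 fell (7.3% of all genes), and 5 rose after it (16.2% of all genes). Acta2, smooth muscle actin, had 142, 212 and 181 CPM on day 10 and 165, 88.7 and 103 CPM on day 0 (0.58 ± 0.78, adjusted p = 0.594), with 2.91, 2.02 and 2.31 CPM on day 6, so its lowest level was on day 6. Tagln, a calponin-related protein, fell, with 61.4, 55.4 and 58.5 CPM on day 10 and 240.2, 116 and 181 CPM on day 0 (-1.61 ± 0.63, adjusted p = 0.0438), and was not called without day 0 replicate 3 (adjusted p = 0.0718). Of 12 genes of epicardium and mesothelium 4 rose and 1 fell between day 0 and day 10. By day 6, 5 fell (7.3% of all genes), and 7 rose and 1 fell after it (16.2% and 12.9% of all genes). Gpc3, a glypican of embryonic mesoderm, had 549, 593 and 646 CPM on day 10 and 45.3, 39.7 and 61.3 CPM on day 0 (3.61 ± 0.56, adjusted p = 1.4e-05). Tcf21, a factor of epicardial fibroblast progenitors, had 2.14, 3.84 and 2.82 CPM on day 10 and 0, 0.0478 and 0.319 CPM on day 0 (5.80 ± 1.20, adjusted p = 0.00035). Wt1, a zinc finger factor of epicardium and kidney, was not called (-1.40 ± 0.57, adjusted p = 0.0545) and was highest on day 6.

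Most of the endothelial genes rose. Of 20, 15 were called higher and 0 lower (median 3.34), and 16 were called higher without day 0 replicate 3. Kdr, the VEGF receptor of endothelium and its progenitors, had 243, 301 and 246 CPM on day 10 and 3.11, 3.65 and 7.03 CPM on day 0 (5.91 ± 0.84, adjusted p = 5.71e-06). Cdh5, the cadherin of endothelial junctions, had 58.8, 75.5 and 58.7 CPM on day 10 and 0.366, 0.669 and 1.28 CPM on day 0 (6.64 ± 1.19, adjusted p = 9.34e-05). Ramp2, a coreceptor for adrenomedullin, had 28.6, 25.2 and 30.1 CPM on day 10 and 0.805, 1.10 and 1.28 CPM on day 0 (4.77 ± 0.61, adjusted p = 1.45e-06). The 3 day 10 libraries lay close to each other in each of these genes and far above day 0. Tek, the angiopoietin receptor TIE2, had 45.8, 58.3 and 44.0 CPM on day 10 and 6.17, 6.59 and 6.07 CPM on day 0 (2.97 ± 0.42, adjusted p = 4.24e-06). Erg, an ETS factor of endothelium, had 16.4, 15.3 and 13.4 CPM on day 10 and 0.0732, 0.0955 and 0 CPM on day 0 (7.57 ± 1.25, adjusted p = 3.05e-05). Emcn, a sialomucin of veins and capillaries, had 933 counts on day 10 and 2 counts on day 0, a ratio of 302 in CPM with an interval of 83.4 to 2497. Flt1, Pecam1, Eng, Etv2 and Robo4 were the 5 not called. Pecam1, which stem cells also express, had 14.97, 31.6 and 18.5 CPM on day 10 and 23.7, 21.1 and 10.9 CPM on day 0 (0.21 ± 0.42, adjusted p = 0.727).

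Blood genes also rose, with a wide spread among the day 10 libraries. Of 18 tested blood regulators and globins, 11 were called higher and 0 lower (median 2.58), and 10 without day 0 replicate 3, while Hba-a1 and Hba-a2 had 0 counts in every mCaPS library. Hbb-bh1, the beta-like globin of primitive red cells, had 6.05, 172 and 78.8 CPM on day 10 and 0.183, 0.717 and 0.639 CPM on day 0 (7.51 ± 1.52, adjusted p = 0.000338). Hba-x, the zeta globin of the same cells, had 3.86, 97.7 and 40.6 CPM on day 10 and 0.0366, 0.287 and 0.958 CPM on day 0 (7.56 ± 1.80, adjusted p = 0.00157). Replicate 1 of day 10 was far below the other 2 in both globins and still above all day 0 libraries. The regulators were closer together, as in Lmo2, a LIM partner of TAL1, with 15.8, 12.6 and 14.8 CPM on day 10 and 0.476, 0.788 and 1.597 CPM on day 0 (4.103 ± 0.49, adjusted p = 5e-07). Tal1, the factor that sets up blood from mesoderm, had 14.2, 26.2 and 22.3 CPM on day 10 and 1.43, 2.15 and 1.28 CPM on day 0 (3.65 ± 0.64, adjusted p = 6.57e-05). Gata2 and Runx1, factors of definitive blood and of other tissues, were not called, at 1.32 ± 0.74, adjusted p = 0.165 for Gata2 and -0.37 ± 0.66, adjusted p = 0.699 for Runx1. Of 12 macrophage genes only 4 had counts enough to be tested, 1 of them fell, and the summed level of 4 macrophage markers was 6.7 to 7.29 CPM on day 10 and 4.15 to 8.38 CPM on day 0.

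Genes of the yolk sac endoderm, the outer layer that feeds the early embryo, rose in part. Of 20 tested, 8 were called higher and 0 lower (median 1.82), and 7 without day 0 replicate 3. Ttr, the carrier of thyroid hormone and retinol, had 1.15, 18.998 and 15.6 CPM on day 10, or 1813 counts, and 2 counts on day 0, a ratio of 587 in CPM with an interval of 162 to 4849. Afp, alpha-fetoprotein, had 0.904, 8.94 and 5.37 CPM on day 10, or 773 counts, and 2 counts on day 0, a ratio of 250.2 with an interval of 69.0 to 2070. Rbp4, the plasma retinol carrier, had 4.70, 26.9 and 21.7 CPM on day 10 and 0.86, 0.955 and 1.28 CPM on day 0 (4.16 ± 0.86, adjusted p = 0.000413). Replicate 1 was the lowest day 10 library in all 3, as it was in the globins. The summed level of 4 yolk sac markers was 2.82, 33.05 and 24.6 CPM on day 10 and 0.256 to 0.958 CPM on day 0, and that of 4 blood markers 11.8, 286 and 127 CPM on day 10 and 1.39 to 2.56 CPM on day 0. Apoe, which many cells make, was not called with all libraries (-0.46 ± 0.43, adjusted p = 0.43), where day 0 replicate 3 was highest (205, 265 and 318 CPM on day 10 and 149, 133 and 801 CPM on day 0), and rose without that library (0.88, adjusted p = 0.038).

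Some genes of somite and node had the reverse order among the day 10 libraries. Of 15 genes of paraxial mesoderm, 7 rose and 3 fell (median 2.07), and 7 rose and 2 fell without day 0 replicate 3. Pax9, a paired-box factor of the sclerotome and pharyngeal pouches, had 36.3, 13.7 and 15.7 CPM on day 10 and 0.183, 0.573 and 0 CPM on day 0 (6.11 ± 1.139, adjusted p = 0.000137). Foxc1, a forkhead factor of somite and head mesoderm, had 59.5, 28.5 and 46.5 CPM on day 10 and 1.501, 1.48 and 3.83 CPM on day 0 (4.42 ± 0.82, adjusted p = 0.000139). Meox1, a homeodomain factor of somites, had 11.6, 6.72 and 9.94 CPM on day 10 and 0.366, 0.287 and 0.639 CPM on day 0 (4.61 ± 0.85, adjusted p = 0.000121). Replicate 1 was the highest day 10 library in all 3. Of 12 endoderm factors 5 rose and 1 fell. Shh, the ligand made by notochord, floor plate and gut, had 23.6, 15.02 and 16.3 CPM on day 10 and 0.0732, 0.191 and 0 CPM on day 0 (7.28 ± 1.36, adjusted p = 0.000132), again highest in replicate 1. Foxa1, a pioneer factor of endoderm, had 23.8, 21.9 and 22.7 CPM on day 10 and 1.21, 1.53 and 0.639 CPM on day 0 (4.25 ± 0.95, adjusted p = 0.00092). Foxa2, its paralog in node and endoderm, was not called, with 31.1, 21.04 and 24.7 CPM on day 10 and 17.3, 8.65 and 28.7 CPM on day 0 (0.51 ± 0.95, adjusted p = 0.709), and it rose against the neural experiment's day 0 libraries with 0.197, 0.386 and 0.325 CPM (6.45, adjusted p = 0.000181). Without day 10 replicate 1, Hbb-bh1 was 8.06 higher on the log2 scale (adjusted p = 0.000217), Rbp4 4.61 (adjusted p = 0.000261) and Pax9 5.55 (adjusted p = 0.000787).

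Neural genes changed in both directions. Of 21 neural progenitor genes 5 rose and 2 fell, near the share of all genes called in either direction (36.3%). Without day 0 replicate 3, 3 rose and 1 fell. Sox11, a SoxC factor of progenitors and of many embryonic tissues, had 498, 366 and 416 CPM on day 10 and 68.4, 77.6 and 149 CPM on day 0 (2.12 ± 0.49, adjusted p = 0.00122). Pax6, a factor of the forebrain and eye, was not called (0.76 ± 0.63, adjusted p = 0.372). Of 20 neuron genes 1 rose and 7 fell (median -1.35). Ina, an intermediate filament of neurons, had 4.63, 3.47 and 3.69 CPM on day 10 and 96.4, 86.1 and 158 CPM on day 0 (-4.85 ± 0.79, adjusted p = 2.98e-05), and Stmn2, a tubulin-binding protein of axons, had 26.4, 15.5 and 19.7 CPM on day 10 and 149, 138 and 77.6 CPM on day 0 (-2.56 ± 0.34, adjusted p = 1.91e-06). Both were higher in every stem cell library than in every day 10 library. Of 14 genes of simple epithelium 4 rose and 2 fell, beside 36.3% of all genes called in either direction. Krt18, a keratin of simple epithelia, had 303, 371 and 394 CPM on day 10 and 74.0, 39.1 and 112 CPM on day 0 (2.25 ± 0.56, adjusted p = 0.00254). Against the neural experiment's day 0 libraries, with 327, 104 and 122 CPM, Krt18 was not called (1.02, adjusted p = 0.16), and 2 genes of the list rose and 5 fell. Of 11 tested trophoblast genes 3 rose and 6 fell, among them Tfap2c, also a gene of stem cells and germ cells, with 2.695, 3.19 and 2.90 CPM on day 10 and 47.6, 35.8 and 52.9 CPM on day 0 (-3.95 ± 0.56, adjusted p = 5.39e-06). In the neural crest list 3 of 10 rose and 2 fell, and Twist1, also a mesoderm factor, had 43.6, 37.3 and 39.7 CPM on day 10 and 5.45, 5.40 and 10.9 CPM on day 0 (2.51 ± 0.43, adjusted p = 5.36e-05).

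Hox genes, the best known targets of Polycomb repression, were taken in 2 lists by position in their clusters. Of 15 genes of paralog groups 1 to 5, which act in hindbrain, pharynx and heart, 7 rose and 0 fell (median 2.55), and 9 rose without day 0 replicate 3. Hoxb1 had 5.95, 17.99 and 10.9 CPM on day 10 and 0.0366, 0.239 and 0.319 CPM on day 0 (6.20 ± 1.30, adjusted p = 0.000465). By day 6, 0 of the 15 had risen and 3 had fallen (3.38% and 7.3% of all genes). Between day 6 and day 10, 12 rose (16.2% of all genes). Of 24 genes of groups 6 to 13, which act in trunk, limb and tail, 1 rose and 7 fell (median -1.99). Of these 24, 10 fell by day 6 (7.3% of all genes), and 6 rose and 0 fell between day 6 and day 10 (16.2% and 12.9%). Hoxd9 was the member that rose, with 0.904, 5.45 and 3.94 CPM on day 10 and 0.695, 0.0955 and 0.319 CPM on day 0 (3.14 ± 0.97, adjusted p = 0.0117). Hoxc8 fell, with 0.0696, 0.646 and 0.773 CPM on day 10 and 7.39, 4.85 and 3.19 CPM on day 0 (-3.39 ± 1.09, adjusted p = 0.0161), and Hoxb9 had 0.104, 0.323 and 0.425 CPM on day 10 and 6.09, 4.99 and 7.98 CPM on day 0 (-4.46 ± 1.15, adjusted p = 0.00319). The summed level of 5 feeder fibroblast markers moved with this fall, at 2.36 to 2.85 CPM on day 10 and 84.2 to 284 CPM on day 0, and its part in the result was not tested. Against the neural experiment's day 0 libraries, where those markers summed to 8.98 to 16.5 CPM, 2 of the 24 rose and 3 fell, and neither Hoxc8 (1.59, adjusted p = 0.292) nor Hoxb9 (-1.71, adjusted p = 0.228) was called.

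BMPs are ligands of the TGF-beta family that induce mesoderm and heart. Of 23 genes of the pathway 15 rose and 2 fell (median 1.46), and 17 rose and 1 fell without day 0 replicate 3. Among ligands, Bmp5 had 46.2, 63.1 and 63.01 CPM on day 10 and 0.586, 0.478 and 0.958 CPM on day 0 (6.56 ± 0.99, adjusted p = 1.18e-05). Bmp4 had 46.5, 78.6 and 70.1 CPM on day 10 and 14.7, 15.6 and 18.5 CPM on day 0 (2.01 ± 0.38, adjusted p = 0.000176). The receptor gene Bmpr1a had 179, 194 and 186 CPM on day 10 and 95.2, 92.6 and 22.4 CPM on day 0 (1.40 ± 0.30, adjusted p = 0.000664). Ligand genes, receptor genes and the transducers Smad1, Smad5 and Smad9 thus rose, while the inhibitory Smad7 fell (-1.53 ± 0.43, adjusted p = 0.00646) with all libraries and was not called without day 0 replicate 3 (adjusted p = 0.0785). The targets were less uniform: Id2, an inhibitor of helix-loop-helix factors, rose (3.01 ± 0.44, adjusted p = 8.7e-06), while Id1 and Id3 were not called, at 0.37 ± 0.60, adjusted p = 0.664 for Id1 and 0.21 ± 0.45, adjusted p = 0.744 for Id3, with day 0 replicate 3 highest in both. Without that library Id1 rose (2.19, adjusted p = 0.00405). Grem1, a secreted BMP antagonist that fibroblasts make, fell, with 2.56, 1.74 and 1.57 CPM on day 10 and 50.5, 49.1 and 15.97 CPM on day 0 (-4.31 ± 0.74, adjusted p = 5.32e-05). Against the neural experiment's day 0 libraries, which had 0.493, 1.20 and 1.81 CPM, its log2 fold change was 0.82 (adjusted p = 0.373).

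WNT genes rose in 9 of 24 members and fell in 5 (median 0.36), 10 rose and 5 fell without day 0 replicate 3 (median 0.88), and 14 rose and 2 fell against the neural experiment's day 0 libraries (median 1.97). The ligand gene Wnt2, made by heart and lung mesoderm, had 11.96, 29.8 and 25.8 CPM on day 10 and 0.512, 0.621 and 0.319 CPM on day 0 (5.43 ± 0.80, adjusted p = 8.11e-06). Fzd4, a receptor of vessels, had 60.9, 75.7 and 60.5 CPM on day 10 and 2.89, 3.22 and 5.75 CPM on day 0 (4.105 ± 0.52, adjusted p = 1.06e-06). Notum, an enzyme that inactivates WNT ligands and is a feedback target, fell, with 0.278, 1.35 and 0.909 CPM on day 10 and 19.9, 19.2 and 58.0 CPM on day 0 (-5.25 ± 0.71, adjusted p = 2.6e-06). Of 17 retinoic acid genes 5 rose and 1 fell, near the share of all genes called in either direction (36.3%). Rarb, a receptor and direct target, had 33.6, 25.8 and 31.5 CPM on day 10 and 0.476, 0.478 and 2.71 CPM on day 0 (4.97 ± 0.65, adjusted p = 1.67e-06), and Meis2, a Hox cofactor, had 111, 100.3 and 102 CPM on day 10 and 3.86, 4.11 and 6.39 CPM on day 0 (4.49 ± 0.71, adjusted p = 2.16e-05). Cyp26a1, the enzyme that degrades retinoic acid, was not called (0.77 ± 0.96, adjusted p = 0.569), and it rose against the neural experiment's day 0 libraries (3.12, adjusted p = 0.0216).

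Imprinted genes, which are expressed from the allele of only 1 parent and many of which control growth, rose in 15 of 25 members and fell in 0 (median 1.71), and 13 rose without day 0 replicate 3. Igf2, the fetal insulin-like growth factor, had 3270.2, 3750.3 and 3631 CPM on day 10 and 60.5, 53.1 and 159 CPM on day 0 (5.29 ± 1.22, adjusted p = 0.00125). Igf2r, the receptor that clears it, rose too, with 1026, 1342 and 1212 CPM on day 10 and 218, 205 and 204 CPM on day 0 (2.51 ± 0.29, adjusted p = 3.26e-07). Peg3, a paternally expressed zinc finger gene, had 1481, 1808 and 1494 CPM on day 10 and 189.7, 159 and 282 CPM on day 0 (2.92 ± 0.40, adjusted p = 3.05e-06). All 3 had separate groups and similar day 10 libraries. Sgce, the epsilon sarcoglycan gene next to Peg10, had 36.5, 44.9 and 39.6 CPM on day 10 and 5.09, 3.80 and 2.87 CPM on day 0 (3.33 ± 0.32, adjusted p = 3.58e-08). The maternally expressed RNAs Meg3 and Rian were not called, at 0.76 ± 0.59, adjusted p = 0.33 for Meg3 and 0.44 ± 0.48, adjusted p = 0.506 for Rian.

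Germline genes fell. Of 16 genes of germ cell development and meiosis 1 rose and 12 fell (median -2.43), and the same counts held without day 0 replicate 3. On day 6, 3 were higher and 2 lower than on day 0 (3.38% and 7.3% of all genes). From day 6 to day 10, 1 rose and 12 fell (16.2% and 12.9% of all genes). Ddx4, the helicase also known as VASA, had 8.97, 11.3 and 2.24 CPM on day 0, 21.1, 16.4 and 19.2 CPM on day 6 and 1.29, 1.57 and 1.20 CPM on day 10 (day 10 over day 0 -2.51 ± 0.53, adjusted p = 0.000486). Mael, a factor of the piRNA pathway, had 3.55, 3.06 and 3.83 CPM on day 0, 15.6, 12.9 and 15.3 CPM on day 6 and 0.556, 0.606 and 0.851 CPM on day 10 (day 10 over day 0 -2.36 ± 0.77, adjusted p = 0.0167). In both, day 6 was the highest point in every replicate. Rpl10l, a retrogene of a ribosomal protein, had 0.139, 0.242 and 0 CPM on day 10 and 20.7, 19.7 and 16.3 CPM on day 0 (-7.19 ± 1.10, adjusted p = 1.28e-05). Prdm1, also a factor of endothelium and epithelium, was the member that rose (1.46 ± 0.36, adjusted p = 0.00211). The motif CACGTG, an E-box, was found in the 250 bases before 6 of the 14 germline genes in the promoter table, 4 of them called, and before 6.05% of all 27025 genes, so 2 of these promoters are shown for Ddx4 (chr13:112652311-112652560, - strand) and Mael (chr1:166238745-166238994, - strand), RefSeq on GRCm38.p6, with the motif in capitals.
Ddx4: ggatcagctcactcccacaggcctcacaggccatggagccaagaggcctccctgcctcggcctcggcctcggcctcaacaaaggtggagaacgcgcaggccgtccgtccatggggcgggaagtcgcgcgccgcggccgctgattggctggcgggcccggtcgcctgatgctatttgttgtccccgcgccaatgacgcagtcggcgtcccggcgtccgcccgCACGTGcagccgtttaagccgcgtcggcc
Mael: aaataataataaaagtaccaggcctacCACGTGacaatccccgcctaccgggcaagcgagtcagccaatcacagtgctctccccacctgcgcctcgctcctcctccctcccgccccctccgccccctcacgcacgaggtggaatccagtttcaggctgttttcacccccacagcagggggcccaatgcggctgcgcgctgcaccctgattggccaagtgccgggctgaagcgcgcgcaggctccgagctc
Genes of the cleavage embryo, which flicker on in rare stem cells, fell in 8 of 10 tested members (median -5.42). Zscan4c had 2 counts on day 10 and 182 on day 0, so that day 0 was higher by a ratio of 141 in CPM with an interval of 38.4 to 1170. Members of the Zscan4 family are near-identical copies, and how their reads were shared out is uncertain.

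Polycomb subunit genes changed in both directions. Of 24 PRC1 subunit genes 7 rose and 5 fell, with the same counts without day 0 replicate 3, and of 12 PRC2 subunit genes 1 rose and 7 fell (6 without it). Cbx7, the gene that carries the altered allele (chromosome 15, 79915807-79932646, - strand, mm10), had 61.9, 136 and 391 CPM on day 0, 70.8, 65.7 and 78.8 CPM on day 6 and 9.03, 10.5 and 11.2 CPM on day 10. Day 10 lay below day 0 in every library (-4.26 ± 0.60, adjusted p = 4.88e-06), and the 3 day 0 libraries differed widely among themselves. Without day 0 replicate 3 the log2 fold change was -3.30 (adjusted p = 5.25e-05). Cbx2 (chromosome 11, 119023021-119031275, + strand, mm10) had 91.1, 85.2 and 95.3 CPM on day 10 and 28.9, 108 and 329 CPM on day 0 (-0.77 ± 0.42, adjusted p = 0.149), so its day 10 libraries lay between those of day 0. The order of the day 0 libraries was the same in Cbx2 and Cbx7. Against the neural experiment's day 0 libraries, which had 51.4, 43.9 and 43.9 CPM, Cbx2 rose (1.04, adjusted p = 0.000549), and Cbx7 with 85.5, 95.1 and 82.3 CPM there fell (-3.02, adjusted p = 2.37e-05). Whether reads of the CBX2 domain placed in CBX7 were counted to Cbx2 was not tested, so a level of Cbx2 in this line may hold reads of the altered Cbx7 transcript.

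**Figure D4:**
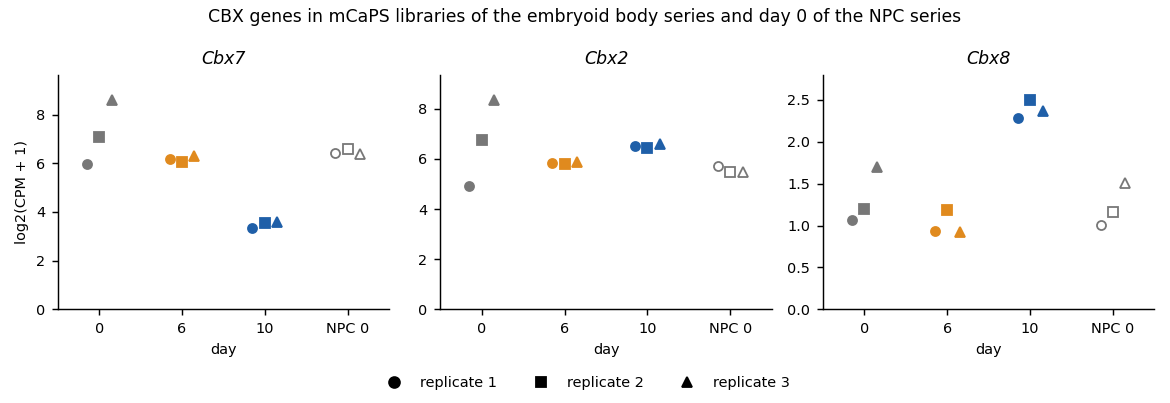
Level of Cbx7, Cbx2 and Cbx8 in each mCaPS library on days 0, 6 and 10 of the embryoid body experiment (filled) and on day 0 of the neural progenitor experiment (open), as log2(CPM + 1). Cbx7 was lowest on day 10 in all 3 replicates, Cbx8 was highest there, and the day 0 libraries of the embryoid body experiment spread widely in Cbx7 and Cbx2.

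Cbx8 rose, at a low level. It had 3.88, 4.66 and 4.16 CPM on day 10 and 1.10, 1.29 and 2.24 CPM on day 0 (1.53 ± 0.45, adjusted p = 0.00886), with no overlap. Of the other subunits, Bmi1, a PCGF protein of canonical PRC1, rose, with 26.4, 22.3 and 20.9 CPM on day 10 and 7.98, 7.31 and 3.83 CPM on day 0 (1.84 ± 0.34, adjusted p = 0.000123), and Phc1, a polyhomeotic subunit of stem cells, fell, with 114, 114 and 108 CPM on day 10 and 436, 459 and 290.3 CPM on day 0 (-1.82 ± 0.44, adjusted p = 0.00185). Phc2, its paralog in later tissue, rose (1.07 ± 0.42, adjusted p = 0.0449). L3mbtl2, of a variant complex, had 40.2, 40.2 and 40.0 CPM on day 10 and 155, 158 and 221 CPM on day 0 (-2.15 ± 0.33, adjusted p = 1.14e-05). In PRC2, Jarid2, an accessory subunit, had 244, 242 and 252 CPM on day 10 and 631, 585 and 543 CPM on day 0 (-1.26 ± 0.24, adjusted p = 0.000203), Eed, a core subunit, fell (-1.61 ± 0.30, adjusted p = 0.000152), and Ezh1, the less active methyltransferase, was the member that rose (1.141 ± 0.30, adjusted p = 0.00337), although not against the neural experiment's day 0 libraries (adjusted p = 0.101). The catalytic genes Rnf2 and Ezh2 were not called, at 0.80 ± 0.49, adjusted p = 0.207 for Rnf2 and 0.44 ± 0.39, adjusted p = 0.402 for Ezh2. Of 9 tested genes of DNA methylation 2 rose and 4 fell, with Tet1 at 189, 139.7 and 140.1 CPM on day 10 and 1072, 1065 and 307 CPM on day 0 (-2.38 ± 0.49, adjusted p = 0.000389) and Tet3 at 229, 192 and 210.4 CPM on day 10 and 29.6, 34.7 and 34.7 CPM on day 0 (2.67 ± 0.75, adjusted p = 0.0064). The 2 dioxygenase genes thus changed in opposite directions.

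Genes of the cell cycle fell in part. Of 22, 0 rose and 8 fell (median -0.56). Ccne1, cyclin E1, which stem cells keep high, had 27.3, 23.6 and 27.98 CPM on day 10 and 178, 176 and 91.3 CPM on day 0 (-2.497 ± 0.29, adjusted p = 3.58e-07), and Ccnd1 had 62.5, 70.1 and 74.9 CPM on day 10 and 272, 268 and 429 CPM on day 0 (-2.22 ± 0.25, adjusted p = 2.01e-07). Mki67 and Top2a were not called, at 0.78 ± 0.34, adjusted p = 0.0773 for Mki67 and 0.04 ± 0.40, adjusted p = 0.948 for Top2a. Of 18 inhibitors of cyclin-dependent kinases and p53 targets 2 rose and 10 fell, with Cdkn1b, the inhibitor p27, rising to 72.8, 65.7 and 77.7 CPM on day 10, against 18.8, 19.7 and 24.6 CPM on day 0 (1.78 ± 0.21, adjusted p = 5.1e-07), and Bax, a pro-apoptotic gene, at 42.2, 45.8 and 51.1 CPM on day 10 and 107, 103 and 237 CPM on day 0 (-1.68 ± 0.29, adjusted p = 6.65e-05). Of 17 genes of hypoxia and glycolysis 7 rose and 0 fell. P4ha1, a collagen prolyl hydroxylase induced by hypoxia, had 168, 172 and 164 CPM on day 10 and 38.7, 37.1 and 39.3 CPM on day 0 (2.13 ± 0.39, adjusted p = 0.000105), and Vegfa, the ligand of KDR, had 127, 125 and 146 CPM on day 10 and 35.1, 28.4 and 56.2 CPM on day 0 (1.74 ± 0.39, adjusted p = 0.000842). Gapdh, also in that list, was counted at a low level in all mCaPS libraries, with 17.7, 14.5 and 17.4 CPM on day 10 and 27.1, 27.0 and 31.3 CPM on day 0 (-0.78 ± 1.28, adjusted p = 0.665). How reads that map to several places were counted is not given, so this count may not be the level of its RNA, which was not tested. Actb, beta-actin, had 3346, 3900.1 and 3855 CPM on day 10 and 4459, 3703 and 4541 CPM on day 0 (-0.19 ± 0.23, adjusted p = 0.549). Of 16 immediate early genes 0 rose and 5 fell, and 1 rose and 3 fell without day 0 replicate 3.

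Genes of the feeder fibroblasts fell steeply. Of 20 markers of cultured fibroblasts 2 rose and 16 fell (median -7.07), and 1 rose and 16 fell without day 0 replicate 3. By day 6, 16 had already fallen (7.3% of all genes). Mmp3, stromelysin, had 0.243, 0.323 and 0.193 CPM on day 10 and 127, 102 and 32.4 CPM on day 0 (-8.41 ± 0.95, adjusted p = 2.58e-07). Il1rl1, the interleukin-33 receptor, had 0.104, 0.121 and 0 CPM on day 10 and 98.6, 74.8 and 24.6 CPM on day 0 (-9.72 ± 0.95, adjusted p = 4.22e-08). Ccl7, a chemokine, had 2 counts on day 10 and 2720 on day 0, so that day 0 was higher by a ratio of 2101 in CPM with an interval of 581 to 17357. The summed level of 5 feeder markers was 2.36 to 2.85 CPM on day 10 and 284, 226 and 84.2 CPM on day 0, and it was 8.98 to 16.5 CPM in the neural experiment's day 0 libraries. Set against those libraries, 4 of the 20 genes rose and 11 fell, with a median of -2.92 (beside 18.6% and 16.8% of all genes).

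Collagens and mesenchymal genes depended on which day 0 libraries were used. Of 20, 5 rose and 7 fell with all libraries (median -0.80), 5 rose and 4 fell without day 0 replicate 3, and 13 rose and 0 fell against the neural experiment's day 0 libraries. Col1a1, the main chain of type I collagen, had 83.9, 256 and 200.1 CPM on day 10 and 535, 451 and 6902 CPM on day 0 (-3.87 ± 1.42, adjusted p = 0.0329), and it was not called without replicate 3 (adjusted p = 0.43). Against the neural experiment's day 0 libraries, with 86.1, 45.3 and 78.5 CPM, the log2 fold change was 1.44 (adjusted p = 0.383). Col1a2 had 31.1, 85.9 and 61.7 CPM on day 10 and 387, 296 and 3342 CPM on day 0 (-4.49 ± 0.94, adjusted p = 0.000445), and set against 19.2, 14.9 and 27.3 CPM in the neural experiment the log2 fold change was 1.62 (adjusted p = 0.0848). Day 0 replicate 3 was far above the other day 0 libraries in both chains. Col6a1 fell with all libraries (-2.95 ± 0.67, adjusted p = 0.000989) and rose against the neural experiment (2.56, adjusted p = 0.00131). Pdgfra, a growth factor receptor of mesoderm, rose either way, with 200.2, 263 and 236 CPM on day 10 and 49.4, 43.5 and 21.2 CPM on day 0 (2.61 ± 0.70, adjusted p = 0.00444), and against the neural experiment 6.48 (adjusted p = 1.88e-06). Bgn, the proteoglycan biglycan, fell, with 10.4, 7.75 and 6.26 CPM on day 10 and 387, 315 and 171 CPM on day 0 (-5.16 ± 1.117, adjusted p = 0.000657), but not against the neural experiment's day 0 libraries (adjusted p = 0.573). Lum, lumican, was not called (0.27 ± 0.89, adjusted p = 0.837), with 0.0334, 0.0824 and 0.18 CPM on day 6, and rose against the neural experiment (9.14, adjusted p = 3.14e-05). Of 14 basement membrane genes 1 rose and 2 fell.

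The genes at either end of the fold change, in and outside the lists, were of several kinds. Gimap4, a GTPase gene of lymphoid and endothelial cells, had 5.18, 4.93 and 5.07 CPM on day 10 and 0 counts on day 0, which is at least 173-fold higher against a floor of 3 counts over the group. Rubie, a long noncoding RNA, had 3.56, 5.98 and 5.63 CPM on day 10 and 0 counts on day 0, at least 171-fold higher. Hapln1, a link protein of the cardiac jelly, had 91.0, 79.7 and 79.7 CPM on day 10 and 0.11, 0.287 and 1.28 CPM on day 0 (7.92 ± 1.40, adjusted p = 7.56e-05). Popdc2, a cAMP-binding protein of heart muscle, had 15.1, 30.6 and 20.5 CPM on day 10 and 0.146, 0.0955 and 0 CPM on day 0 (7.61 ± 1.19, adjusted p = 1.58e-05). At the other end, the 12 lowest included fibroblast markers, with Ccl7, Il1rl1 and Mmp3 given above and Saa3, Ccl11 and S100a4. Saa3 changed by -9.91 and Ccl11 by -9.29. Against the neural experiment's day 0 libraries these were -3.23 (adjusted p = 0.047) and -1.81 (adjusted p = 0.22). Krt42, a keratin that stem cells express, had 0.0348, 0.0404 and 0 CPM on day 10 and 18.3, 14.6 and 60.05 CPM on day 0 (-10.08 ± 1.07, adjusted p = 9.99e-08). Its log2 fold change against the neural experiment's day 0 libraries was -8.25 (adjusted p = 4.43e-07). Inhbb, the activin B chain, had 0.209, 0.162 and 0.116 CPM on day 10 and 40.2, 32.4 and 84.0 CPM on day 0 (-8.29 ± 1.21, adjusted p = 6.98e-06). The neural experiment's day 0 libraries had less of it, with 1.53, 3.23 and 4.12 CPM (log2 fold change -4.08, adjusted p = 0.00381). Rn45s itself was called lower (-4.39 ± 1.58, adjusted p = 0.0297) with all libraries and not without day 0 replicate 3 (adjusted p = 0.963).

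The change of mCaPS was then set against that of WT, as a test of the difference of the 2 changes. WT embryoid bodies had 2617 genes higher and 2579 lower on day 10 than on day 0 (14.7% and 14.5%, 29.2% together). None of the 17791 genes passed in the difference of changes by edgeR (0% called), where 933 had an unadjusted p below 0.05 and the lowest adjusted p was 0.185, and DESeq2 called 32. Side by side, the naive list fell in 23 of 24 members in mCaPS and in 23 in WT, the heart factors rose in 17 and 16 of 18, and the cardiac muscle genes rose in 18 and 18 of 24. Naive genes had a median log2 fold change of -4.57 in mCaPS and -3.70 in WT. The primitive streak list had 1 of 20 higher and 4 lower in mCaPS and 9 higher and 0 lower in WT. For T the log2 fold change was -0.22 ± 1.13 in mCaPS and 2.90 ± 1.22 in WT, a difference of -3.12 ± 1.64 (adjusted p = 0.969). Mixl1 had -3.44 ± 1.15 in mCaPS and 2.82 ± 1.16 in WT, a difference of -6.26 ± 1.63 (adjusted p = 0.373). Lhx1 had 0.31 in mCaPS and 5.92 in WT (adjusted p of the difference = 0.542). Every mCaPS day 0 library of the embryoid body experiment lay above every WT day 0 library in these 3 genes, with 17.02, 10.2 and 4.47 CPM of Mixl1 in mCaPS and 0.831, 0.446 and 1.17 CPM in WT stem cells. The mCaPS day 0 libraries of the neural experiment overlapped these WT libraries in T and Mixl1, with 25.04, 8.73 and 78.6 CPM of T and 1.38, 1.10 and 5.69 CPM of Mixl1. The day 0 levels themselves were not tested here.

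The same test against the libraries labelled CBX7 KO called 15 genes (0.0843% of those tested), of which 2 (0.0112%) changed more upward and 13 (0.0731%) more downward in mCaPS. The libraries labelled KO had 2754 genes higher and 1756 lower on day 10 (15.5% and 9.87%, 25.3% together). In KO the naive list fell in 21 of 24 members (median -2.53), and heart factors rose in 14 of 18. Cardiac muscle genes rose in 10 of 24 (median 1.66 against 4.12 in mCaPS). The difference of changes called 0 members of these lists. Cbx7 itself had 19.97, 53.8 and 87.1 CPM on day 10 and 87.8, 111 and 91.8 CPM on day 0 in the libraries labelled KO. Since the labels do not say which part of the gene was removed, this count does not check the label. Grb10, an imprinted adaptor that restrains insulin signalling (chromosome 11, 11930499-12037420, - strand, mm10), had the lowest adjusted p. It had 726, 836 and 892 CPM on day 10 and 266, 270.2 and 192 CPM on day 0 in mCaPS (1.75 ± 0.31, adjusted p = 8.17e-05), and 9.31, 22.5 and 31.6 CPM on day 10 and 72.6, 77.9 and 70.1 CPM on day 0 in the libraries labelled KO (-1.80 ± 0.31, adjusted p = 0.000102). The changes went in opposite directions and differed by 3.55 ± 0.44 (adjusted p = 0.000113). In WT Grb10 rose as in mCaPS, with 1225, 1031 and 1073 CPM on day 10 and 386, 273 and 466 CPM on day 0 (1.57 ± 0.31, adjusted p = 0.00035). Fhod3, a formin of the cardiac sarcomere, was the other gene above, with 36.2, 38.2 and 43.7 CPM on day 10 and 8.25, 6.66 and 5.75 CPM on day 0 in mCaPS, and 17.4, 15.3 and 16.3 CPM on day 10 and 17.1, 11.96 and 17.9 CPM on day 0 in the libraries labelled KO (difference 2.44 ± 0.44, adjusted p = 0.0175). Fhod3 was also called higher on day 10 in WT (1.06 ± 0.31, adjusted p = 0.0109).

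Of the 13 genes below, 4 were pluripotency and NODAL genes that fell further in mCaPS than in the libraries labelled KO. In WT the change of the 13 genes lay between those of mCaPS and KO, except in Pgr (1.83 in WT and 1.81 in KO). It was nearer to KO in some, as in Nkx1-2 (-3.38 in mCaPS, 1.66 in WT, 2.09 in KO). In others it was nearer to mCaPS, as in Tmem8 (-3.34 in mCaPS, -2.40 in WT, -0.88 in KO). Pou5f1 changed by -4.58 ± 0.43 in mCaPS and by -1.89 ± 0.38 in the libraries labelled KO, which had 95.6, 187 and 358 CPM on day 10 and 749, 781 and 836 CPM on day 0 (difference -2.69 ± 0.53, adjusted p = 0.0303). Lefty2 differed by -3.97 ± 0.66 (adjusted p = 0.00911), with 13.4, 42.9 and 90.3 CPM on day 10 and 287, 125 and 213 CPM on day 0 in the libraries labelled KO. Gdf3 differed by -4.19 ± 0.81 (adjusted p = 0.03), with 1.25, 16.3 and 27.2 CPM on day 10 and 78.3, 87.1 and 71.3 CPM on day 0 there. In all 3 genes the KO libraries of day 10 spread widely, with replicate 1 the lowest and replicate 3 the highest. Nodal differed by -3.07 ± 0.58 (adjusted p = 0.0246). A second group was Tap1, Tap2 and Tapbp, which load peptides on major histocompatibility class I molecules and lie close together on chromosome 17. Tap2 had 0.974, 1.33 and 1.30 CPM on day 10 and 10.3, 7.83 and 36.1 CPM on day 0 in mCaPS, and 5.48, 2.11 and 5.65 CPM on day 10 and 5.34, 2.94 and 3.05 CPM on day 0 in the libraries labelled KO (difference -4.11 ± 0.64, adjusted p = 0.00472). Tapbp had 25.8, 30.6 and 32.9 CPM on day 10 and 81.1, 63.8 and 397 CPM on day 0 in mCaPS, and 42.9, 30.5 and 50.4 CPM on day 10 and 40.7, 26.7 and 29.0 CPM on day 0 in the libraries labelled KO (difference -2.96 ± 0.59, adjusted p = 0.0323), and day 0 replicate 3 was the highest mCaPS library in both genes. Oasl2, an interferon-induced gene, had 0.139, 0.202 and 0.116 CPM on day 10 and 4.04, 3.18 and 3.51 CPM on day 0 in mCaPS, and 2.78, 1.23 and 1.36 CPM on day 10 and 1.83, 0.51 and 0.678 CPM on day 0 in the libraries labelled KO (difference -5.35 ± 0.95, adjusted p = 0.0171). Each of the 12 libraries of this test was left out in turn, and the count then ran from 2 to 121. Without mCaPS day 0 replicate 3 the test called 3 genes, Grb10, Tap2 and Oasl2, at adjusted p = 0.00126 for Grb10, 0.0244 for Tap2 and 0.0492 for Oasl2.

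**Figure D5:**
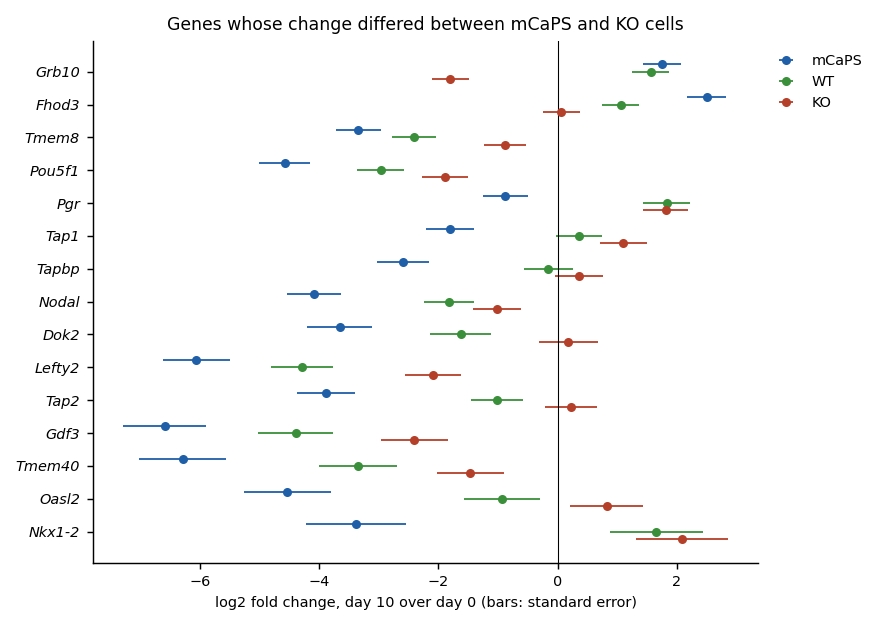
Log2 fold change of day 10 over day 0, with its standard error, in mCaPS, WT and KO for the 15 genes whose change differed between mCaPS and KO. Grb10 rose in mCaPS and WT and fell in KO, and Fhod3 rose in mCaPS and WT. The other 13 lie lower in mCaPS than in KO.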

How the data were processed

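RNA-seq of ribosomal RNA-depleted, directional libraries gave a table of raw counts per gene, which the authors deposited for all embryoid body libraries. Per the submitters' processing notes, HOMER 4.10.4, edgeR, featureCounts 1.6.3, cutadapt 1.14 and STAR 2.7.0 were used with build mm10. How multimapping reads and read mates were counted is not given in the sources used here. Of 24984 gene names, 23 with the form of a date were left out. All 36 embryoid body libraries (12 groups of genotype and day, 3 each, also of CaPS, which has the unmutated domain) were fitted together with edgeR 4.0.16 (R 4.3.3) by the quasi-likelihood test, two-sided, with TMM scaling and the package's filter on low counts. P values were adjusted by Benjamini-Hochberg over 17791 genes. Changes of mCaPS, WT and KO were compared by interaction contrasts. Standard errors were derived from the test statistic. Precision follows depth, which was 34377931 to 54282054 counts in mCaPS libraries, and exact 95% intervals and the floor of 3 counts cover counting error only, with each count taken as a fragment. Columns of 9 libraries could not be mapped to samples and were not used. The replicate numbers came from the labels, which do not say that they mark a shared culture or day. Deviations of same-numbered day 10 and day 0 libraries of mCaPS had correlations of 0.131, -0.005 and 0.211. Other pairs had -0.207 to 0.174, so these values do not settle whether libraries were paired.

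The comparison, the members and all gene lists were chosen with earlier results of these data known. Genes named are the 12 highest and the 12 lowest fold changes among called genes without overlap, for each list the 4 called members with the lowest adjusted p and the most abundant uncalled member, a set of checks such as Cbx7, Pou5f1 and Gapdh, and the leading genes of each interaction. Other genes named were chosen after their values were seen. A few genes under the rule are not reported here. Alternatives were DESeq2 1.42.0, another scaling (RLE, none), other filters, a 2-fold threshold, fewer libraries, the replicate block and the mCaPS day 0 libraries of the neural progenitor experiment.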

Additional observations from a re-analysis of the deposited data

Results flagged for a closer look

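A change over 10 days that differed between mCaPS and the libraries labelled KO, by the interaction test in edgeR with adjustment over all genes, was found in 15 genes. The differences are log2 fold changes of mCaPS minus those of KO. In 2 genes the change was more upward in mCaPS, with 3.55 for Grb10 and 2.44 for Fhod3. Among pluripotency, NODAL and caudal epiblast genes the difference was -2.69 for Pou5f1, -3.07 for Nodal, -3.97 for Lefty2, -4.19 for Gdf3 and -5.47 for Nkx1-2. For genes of antigen processing and the interferon response it was -2.91 for Tap1, -4.11 for Tap2, -2.96 for Tapbp and -5.35 for Oasl2. The others were -4.83 for Tmem40, -3.84 for Dok2, -2.69 for Pgr, which encodes the progesterone receptor, and -2.46 for Tmem8. Tmem40 had 0.122, 0.0808 and 0.0773 CPM on day 10 and 6.48, 6.88 and 9.58 CPM on day 0 in mCaPS, and 0.312, 1.16 and 2.97 CPM on day 10 and 3.096, 4.45 and 4.64 CPM on day 0 in the libraries labelled KO (adjusted p = 0.0175). Dok2, an adaptor of blood cells, had 1.27, 1.39 and 1.33 CPM on day 10 and 8.31, 7.19 and 35.9 CPM on day 0 in mCaPS, and 1.36, 3.16 and 6.34 CPM on day 10 and 4.05, 2.99 and 2.52 CPM on day 0 in the libraries labelled KO (adjusted p = 0.0246). Pgr had 1.11, 1.64 and 1.55 CPM on day 10 and 2.01, 2.29 and 3.83 CPM on day 0 in mCaPS, and 3.98, 2.55 and 2.59 CPM on day 10 and 1.08, 0.695 and 0.805 CPM on day 0 in the libraries labelled KO (adjusted p = 0.0303). The fold changes of the WT libraries in these 15 genes were not tested against those of KO here.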

How the results depend on the processing

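In the comparison of EB mCaPS day 10 against day 0 (EB, embryoid body), the count of 6467 called genes stayed within 1.5 times of itself in all alternatives but the test against a 2-fold change, which called 2564 genes and 240 list members against 361. Without each of the 6 libraries in turn it was 5037 to 5952, and 317 to 335 list members were called. DESeq2 called 7196, RLE scaling 6572, no TMM scaling 6295, no filter 6051 and the fit on only the 6 libraries 5091. Of the 176 named genes called, 169 kept call and direction without day 0 replicate 3, and 154 against the neural experiment's day 0 libraries. Against those libraries, the log2 fold change changed sign in 9 genes of the naming rule that passed in at least 1 of these fits, Actg2 (2.56), Erbb3 (-1.11), Cbx2 (1.04), Grem1 (0.82), Crabp1 (2.33), Postn (4.26), Col5a2 (1.53), Col1a2 (1.62) and Col6a1 (2.56), and the cause was not tested. Genes that passed in neither, such as Tbx3 (0.79) and T (0.75), also changed sign. Acta2 (2.19), Id3 (2.00) and Wt1 (-2.50), not called with the main day 0 libraries, passed against those. Apoe was -0.85 to 0.88 without each library in turn, 0.88 without day 0 replicate 3 and 0.89 without it and the 6 WT and CaPS libraries numbered 1.

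The difference from WT, with 0 genes called, gave 32 by DESeq2, 3 without the 6 WT and CaPS libraries numbered 1, 4 without these and mCaPS day 0 replicate 3, and 0 to 2 without each of the 12 libraries, where WT day 0 replicate 1 gave 2 and mCaPS day 0 replicate 1 gave 1. The difference from KO, with 15, gave 171 by DESeq2 and 2 to 121 without each library. It was 121 without KO day 10 replicate 1, 25 without KO day 0 replicate 1, and 2 or 3 without KO day 0 replicate 2 or 3, KO day 10 replicate 3, mCaPS day 0 replicate 3 or any mCaPS day 10 library. With the replicate number as a block, which the correlations of deviations (0.131, -0.005 and 0.211) do not show to pair libraries, EB mCaPS day 10 against day 0 called 8224 genes and the difference from KO 45. Day 0 replicate 3 had 5038932 counts outside Rn45s, and low genes are least precise there.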
